A study of Homo sapiens with 16 samples.

Results

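The voltage-gated sodium and calcium channel genes were followed at their transcription start sites (TSS) in a ChIP-seq experiment on dimethylated lysine 9 of histone H3 (H3K9me2). The members were chosen by name: autosomal genes with an SCN symbol ending in A or B, and CACN genes of the α1, α2δ, β and γ subunits. There were 39 such genes among 58769 autosomal genes, and they held 442 of 210609 distinct TSS windows. CACNA1F lies on the X chromosome and was not a member. Reads were counted in windows of 2000 bp centred on annotated transcript starts, and the counts of a gene's distinct windows were summed. Many windows of a gene overlap, so a read can enter its sum more than once. CACNB3, for example, has 23 windows, of which 3 remain when overlapping ones are dropped. Sums over windows that do not overlap are therefore given as an alternative. The tests assume that each read is counted once, and what repeated reads do to the p-values was not tested.

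The cells were BJ-5ta, a line of human fibroblasts immortalized with telomerase. All groups were this line, either unedited (wild type, WT) or ΔLEO1, which is 1 clone made by CRISPR with guides to exons 1 and 2 of LEO1, a subunit of the PAF1 complex that acts with RNA polymerase II. Each genotype was grown in 10% serum or for 10 days in 0.1% serum, after which the cells were described as quiescent. Fly chromatin was added to each sample as a spike-in. Each of the 4 groups has 2 ChIP libraries and 2 input libraries, A and B, where input stands for sonicated chromatin that met no antibody. The labels name the antibody only as H3, while the study's methods name H3K9me2.

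Voltage-gated channels open when the membrane depolarizes. The α or α1 subunit forms the pore. Sodium β, calcium β, α2δ and γ proteins are auxiliary subunits that set where the channel sits and how it gates. Most of these genes are known from neurons, heart and skeletal muscle, while fibroblasts are not electrically excitable. H3K9me2 is a mark of silent chromatin that often covers long domains and is usually low at the start sites of active genes.

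The 7 usable ChIP libraries held 2153836 to 3696942 reads over all TSS windows and the 8 inputs 3267811 to 9238282. ChIP library A of ΔLEO1 in 10% serum held 54 reads, none of them on a channel gene, and was left out, so that this group has 1 usable ChIP library. Between the WT 0.1% replicates, gene counts differed by no more than counting noise (chi-square per degree of freedom 1.00 for ChIP and for input). Over the peak regions the same pairs did differ (1.51 and 1.17), and they were kept as separate libraries. Nothing in the labels says that A and B are separate cultures, so p-values measure the spread between libraries, which may be technical. LEO1 itself gave no check of the labels: its summed windows differed in input by -0.37 on the log2 scale (edgeR, adjusted p = 0.849).

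The promoters of 5 channel genes are shown because they carry the contrast described next, between genes with much and with little ChIP at their start. They are the 250 bases before the start (RefSeq, GRCh38.p14), written 5′ to 3′ on the gene's strand, with each CG pair in capitals. CACNA1B (chr9:137877532-137877781, plus strand) had the highest ChIP over input of all members and has 39 CG pairs. CACNA1C (chr12:2052737-2052986, plus strand) was among the lowest at its start and has 51. CACNB1 (chr17:39197670-39197919, minus strand) had the largest positive difference of the members between ΔLEO1 and WT in 0.1% serum, short of the threshold, and has 25. SCN10A (chr3:38794011-38794260, minus strand) was high and has 0. SCN1A (chr2:166128021-166128270, minus strand) had the lowest start window and has 1.
CACNA1B: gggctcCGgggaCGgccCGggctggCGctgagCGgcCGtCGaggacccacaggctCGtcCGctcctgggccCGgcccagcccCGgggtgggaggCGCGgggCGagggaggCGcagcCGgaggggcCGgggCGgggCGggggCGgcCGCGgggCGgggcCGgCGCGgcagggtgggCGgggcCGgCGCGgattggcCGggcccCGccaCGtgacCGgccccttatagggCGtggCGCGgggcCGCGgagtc
CACNA1C: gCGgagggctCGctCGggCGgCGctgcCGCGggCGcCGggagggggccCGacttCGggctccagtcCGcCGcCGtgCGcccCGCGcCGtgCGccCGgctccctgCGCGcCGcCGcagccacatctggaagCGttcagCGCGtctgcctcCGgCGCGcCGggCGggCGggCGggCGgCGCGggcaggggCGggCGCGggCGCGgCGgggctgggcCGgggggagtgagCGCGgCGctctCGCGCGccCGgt
CACNB1: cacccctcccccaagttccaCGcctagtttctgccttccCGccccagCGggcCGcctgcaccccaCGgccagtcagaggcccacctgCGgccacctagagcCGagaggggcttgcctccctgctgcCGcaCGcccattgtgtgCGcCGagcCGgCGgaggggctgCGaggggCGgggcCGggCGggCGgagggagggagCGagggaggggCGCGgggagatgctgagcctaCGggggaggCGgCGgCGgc
SCN10A: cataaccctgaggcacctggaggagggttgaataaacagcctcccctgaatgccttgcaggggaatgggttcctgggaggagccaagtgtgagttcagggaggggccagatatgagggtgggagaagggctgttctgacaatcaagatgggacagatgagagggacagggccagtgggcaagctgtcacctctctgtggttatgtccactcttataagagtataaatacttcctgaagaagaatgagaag
SCN1A: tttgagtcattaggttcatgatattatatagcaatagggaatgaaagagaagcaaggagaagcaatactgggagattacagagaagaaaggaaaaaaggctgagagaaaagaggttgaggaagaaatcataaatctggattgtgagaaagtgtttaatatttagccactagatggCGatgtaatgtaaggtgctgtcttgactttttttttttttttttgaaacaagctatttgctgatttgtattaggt
Of all 27305 RefSeq promoters, 93.6% hold at least 1 CG pair in these 250 bases, and the median is 11. The 25 channel genes matched by symbol have a median of 17. Promoters of CACNA1G, CACNA1H, CACNA2D4, CACNG1, CACNG2, CACNG4, CACNG5, CACNG7, CACNG8, SCN3A, SCN3B and SCN4A were not used here.

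The first comparison asked how much H3K9me2 the start windows of channel genes hold relative to input. The family spread widely: CACNA1B, the pore of the N-type calcium channel of nerve terminals, was highest, and CACNB3, a calcium β subunit, was lowest. Of the 39 genes, 26 were called (edgeR's quasi-likelihood test, adjusted p under 0.05 over all genes), 10 higher than input and 16 lower. Calls were common everywhere, with 73.5% of 55149 genes called, 39.5% higher and 34% lower. The median log2 ratio was -0.13 for the channel genes and 0.12 for all genes, and 27 of the 39 lay below the median of all genes. All genes here include features without a gene symbol: 37751 of the 58769 autosomal genes have one. Among genes with a RefSeq promoter the order was opposite, with medians of -0.15 for 25 channel genes and -0.49 for all 17325. Where zero lies depends on the scaling. With library totals and no trimmed mean of M-values (TMM), 17 channel genes were higher and 9 lower, and the medians were 0.07 and 0.33. Summing only windows that do not overlap gave medians of 0.03 and 0.02, with 28 channel genes called against 70.5% of all genes. DESeq2 called 24, against 61.9%.

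Ratios are given as ChIP over the mean of the group's 2 inputs, both as CPM (reads scaled to the TMM-adjusted library size). Ratios use 1 scaling over the 15 libraries, and CPM given alone are scaled within the 7 ChIP or within the 8 input libraries, so the ratio is not their quotient. For CACNA1B they were 4.21 and 4.07 in WT in 10% serum, 3.50 in ΔLEO1 in 10% serum, 3.40 and 3.61 in WT in 0.1% serum, and 1.58 and 1.60 in ΔLEO1 in 0.1% serum. All 7 lay above 1, and the ΔLEO1 0.1% pair was the lowest. The fitted log2 ratio was 1.55 ± 0.14 (SE, 7 ChIP and 8 input libraries, edgeR adjusted p = 6.8e-10), above 99.6% of all genes. SE throughout is the size of the log2 value divided by the square root of the test's F statistic. It is therefore approximate, most so for values near 0.

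The other genes with the highest ratios were CACNG5 and CACNG3, which encode γ-type proteins that regulate AMPA glutamate receptors, and the sodium pores SCN10A of sensory neurons and SCN4A of skeletal muscle. CACNG5 had ratios of 2.08 and 2.19 in WT 10%, 3.05 in ΔLEO1 10%, 2.22 and 2.49 in WT 0.1%, and 2.64 and 1.41 in ΔLEO1 0.1%. CACNG3 had 2.94, 2.82, 2.79, 2.57, 1.51, 1.56 and 1.43 in the same order. Every CACNG5 and CACNG3 library was above 1, with CACNG3 lowest in the ΔLEO1 0.1% pair and 1 WT 0.1% library. The log2 ratios were 1.21 ± 0.14 (adjusted p = 9.7e-08) for CACNG5 and 1.06 ± 0.16 (adjusted p = 2.9e-06) for CACNG3. SCN10A ranged over libraries from 1.41 to 2.34 and SCN4A from 1.22 to 1.86, with log2 ratios of 0.89 ± 0.14 and 0.61 ± 0.13.

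At the other end, CACNB3 had ratios of 0.241 and 0.176 in WT 10%, 0.418 in ΔLEO1 10%, 0.179 and 0.325 in WT 0.1%, and 0.376 and 0.242 in ΔLEO1 0.1%. All 7 were under 0.5 and the groups overlapped. Its log2 ratio was -1.79 ± 0.13 (adjusted p = 3.1e-11). CACNA1G, a T-type pore, was between 0.287 and 0.655, at -1.22 ± 0.16 (adjusted p = 3.1e-07). CACNB1, the β subunit of skeletal muscle, was between 0.334 and 1.08, at -1.03 ± 0.14 (adjusted p = 9.1e-07). CACNG8 rests on 1 window with 6 and 6 ChIP reads in WT 10%, 0 in ΔLEO1 10%, 11 and 3 in WT 0.1% and 5 and 7 in ΔLEO1 0.1%, and its value of -0.89 ± 0.29 is the least certain of these.

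**Figure D1:**
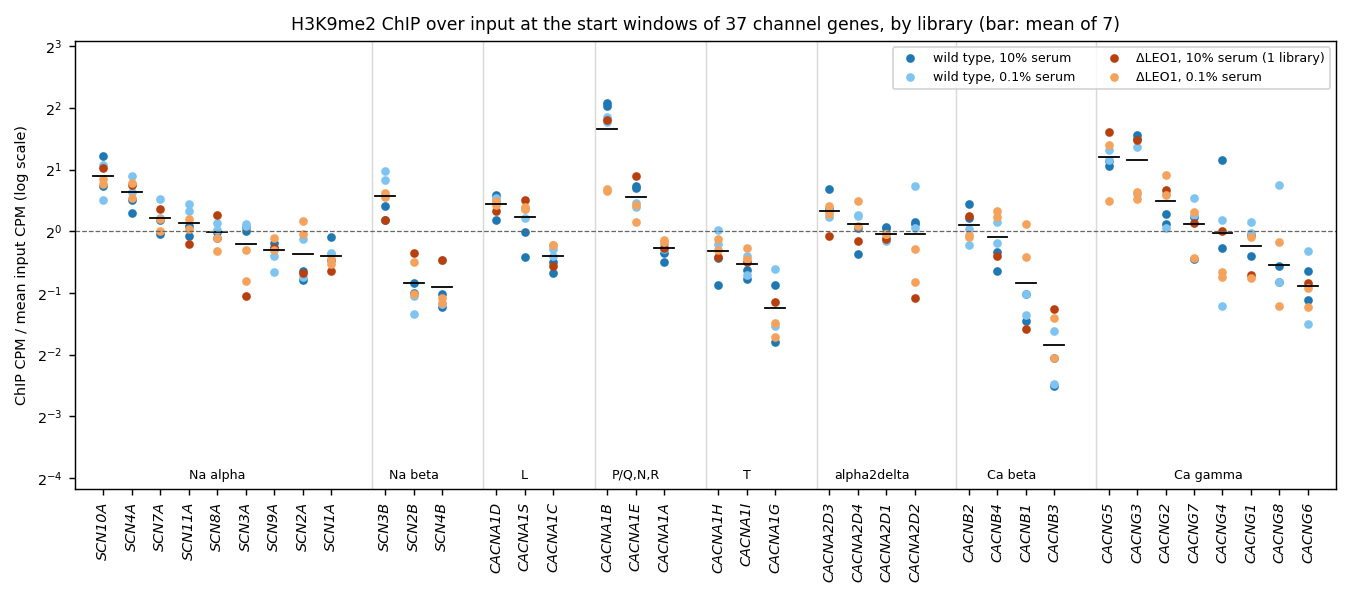
ChIP over input for 37 channel genes, grouped by subunit. Each point is 1 of 7 ChIP libraries divided by the mean of its group's 2 inputs (log axis), and the bar is the mean of the 7; the ΔLEO1 10% library of CACNG8 held 0 reads and is not drawn. CACNA1B stands highest and CACNB3 lowest.

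By role, the T-type pores CACNA1G, CACNA1H and CACNA1I were lower than input in 3 of 3, with a median log2 ratio of -0.52, though the call of CACNA1H was lost on leaving out any of 7 libraries. Over all genes 34% were lower and 39.5% higher, and the role counts below are small beside these shares. T-type channels open at small depolarizations. Of the 3 P/Q, N and R-type pores, which drive transmitter release, CACNA1B and CACNA1E (0.58 ± 0.11) were higher and CACNA1A was lower (-0.28 ± 0.08). Among the L-type pores, CACNA1D was higher (0.42 ± 0.09), CACNA1C of heart and smooth muscle was lower (-0.43 ± 0.09), and CACNA1S was not called (0.21 ± 0.15). Among the sodium pores SCN10A and SCN4A were higher, and SCN1A, SCN2A, SCN3A and SCN9A were lower, with values between -0.43 and -0.31 for the last 4. Among the sodium β subunits SCN2B (-0.78 ± 0.15) and SCN4B (-0.86 ± 0.15) were lower and SCN3B was higher (0.49 ± 0.10). Calcium β subunits were lower in 2 of 4 (CACNB1 and CACNB3), and of the α2δ subunits only CACNA2D3 was called (0.27 ± 0.11). Of the 8 γ genes, CACNG5, CACNG3 and CACNG2 (0.47 ± 0.15) were higher, and CACNG6 and CACNG8 lower.

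These directions are relative to TMM scaling. With library totals and no TMM, CACNA1G was the only T-type pore still called. CACNA1A, SCN1A, SCN2A, SCN3A and SCN9A were not called in that setting either. With totals of the peak table as library sizes, all 39 genes lay below 0, CACNA1B included (-0.09). Nearly all genes did so in this setting: of 55324 tested, 54055 were called lower and 4 higher. The median log2 ratio was -1.44 for all genes and -1.73 for the channel genes. The shift in this setting was thus shared by nearly all genes and not particular to the channel genes.

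Gene sums mix several starts, so single windows were tested in the same way, a choice made after the gene values were seen. Of 441 channel windows tested, 147 were higher than input and 112 lower, against 36.5% and 38.6% of all 199731 windows. Called windows were found in 36 genes, and in 14 of them some windows were higher and others lower. These gene counts were not made over all genes, so they are not shown to be particular to the channel genes. Fold changes of windows with few reads are pulled toward 0 by the prior count of 2, so the reads are given beside them.

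For 25 genes a window lay within 179 bp of the RefSeq start, centred on it in 22. At these start windows 9 genes were lower than input and 5 higher. Over 16773 genes with a RefSeq start, 48.4% of start windows were lower and 28.8% higher. The lowest were SCN1A, CACNA1C, CACNB3, CACNA2D1, SCN8A and SCN9A. The start window of SCN1A, a sodium pore of inhibitory neurons, held 0 and 2 reads in WT 10%, 1 in ΔLEO1 10%, 0 and 0 in WT 0.1%, and 6 and 1 in ΔLEO1 0.1%, against 214 reads in the 8 inputs. Library A of ΔLEO1 0.1% gave 6 of the 10 ChIP reads. Its log2 ratio was -2.39 ± 0.30.

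The start window of CACNA1C held 2 and 0 reads in WT 10%, 2 in ΔLEO1 10%, 2 and 3 in WT 0.1%, and 0 and 2 in ΔLEO1 0.1%, against 189 in the inputs, with a log2 ratio of -1.89 ± 0.29. Every library was at 3 reads or fewer, whatever the genotype or serum. CACNA2D1, the α2δ subunit that binds gabapentin, held 21 ChIP and 240 input reads at its start (-1.78 ± 0.27). SCN8A held 19 and 204 (-1.59 ± 0.27), and SCN9A, a sodium pore of pain-sensing neurons, held 25 and 251 (-1.58 ± 0.25).

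The highest start windows were those of CACNA1B, CACNG3, SCN10A and SCN7A. That of CACNA1B held 44 and 54 reads in WT 10%, 24 in ΔLEO1 10%, 23 and 21 in WT 0.1%, and 15 and 10 in ΔLEO1 0.1%. The inputs summed to 122 reads there, where the median over channel windows was 211. The log2 ratio was 1.96 ± 0.18, above 99.7% of all start windows, and the part of the low input in that ratio was not tested. CACNG3, SCN10A and SCN7A, with input reads of 189, 200 and 224, were at 1.42 ± 0.16, 1.39 ± 0.16 and 1.29 ± 0.16. SCN7A encodes a sodium channel that senses extracellular sodium and is not opened by voltage in the usual way.

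In 24 genes, windows at the start (within 1 kb) could be set beside windows farther away. The farther windows had the higher median in 17 of 24, with a median difference of 0.65 on the log2 scale. Within single groups the count was 17 to 19 of 24. The difference was largest in SCN1A (start -2.39, elsewhere 0.55), SCN8A (-1.26 and 1.28), CACNA2D1 (-1.76 and 0.62), CACNA1C (-1.99 and 0.33) and SCN9A (-1.44 and 0.70). In these 5 genes the gene sums lay between -0.43 and 0.02, and the RefSeq start windows between -2.39 and -1.58. The order was opposite in SCN7A (1.29 and -0.09), CACNA1B (1.99 and 0.97), SCN2B, CACNA1I, SCN10A, SCN2A and CACNB2. Windows of a gene share libraries and many overlap, so these counts are a description without a test. The same count was not made over all genes, so it is not shown to be particular to the channel genes. Start windows of all genes were also lower than input (48.4%) more often than higher (28.8%).

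**Figure D2:**
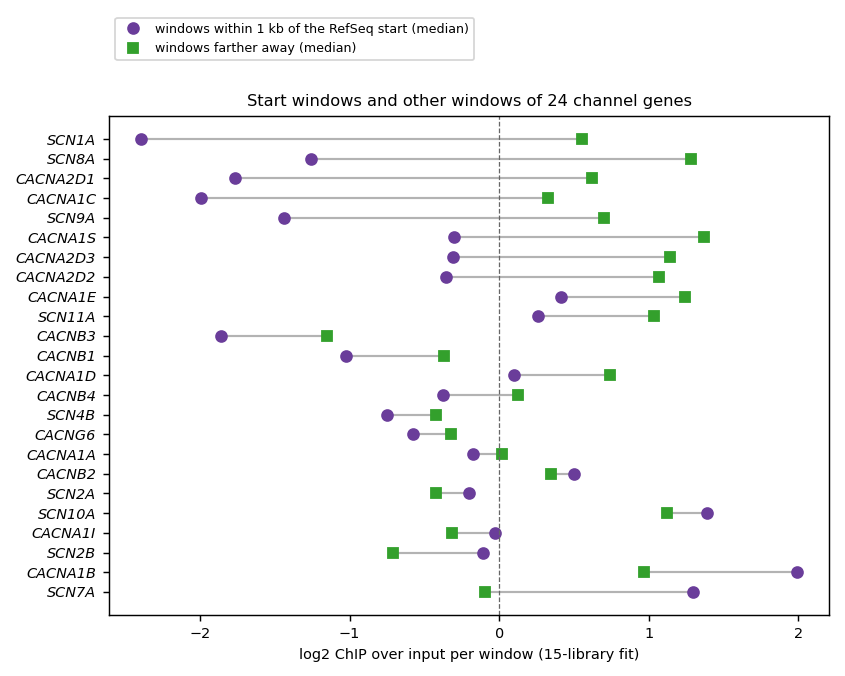
Median log2 ChIP over input of windows within 1 kb of the RefSeq start (circles) and of windows farther away (squares) for 24 channel genes, joined by a line. The squares lie to the right of the circles in 17 genes, by the widest margin in SCN1A, and to the left in 7, with SCN7A and CACNA1B at the bottom.

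SCN1A and SCN3B show that neighbouring starts of a gene differed. For SCN1A, the 3 overlapping windows upstream of the RefSeq start, of which the one at chr2:166148135-166150135 lies at -21115 bp and held 166 ChIP and 222 input reads, were above input (1.07 to 1.12), while the RefSeq start window was at -2.39. SCN3B, the sodium β3 subunit, had its lowest window at chr11:123640124-123642124, with 17 ChIP and 224 input reads (-1.74 ± 0.26). The window at chr11:123653593-123655593 held 228 and 244 reads (1.29 ± 0.16). SCN3A had 14 ChIP and 197 input reads at chr2:165203050-165205050 (-1.81 ± 0.28) and 153 and 230 at chr2:165185747-165187747 (0.74 ± 0.19).

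**Figure D3:**
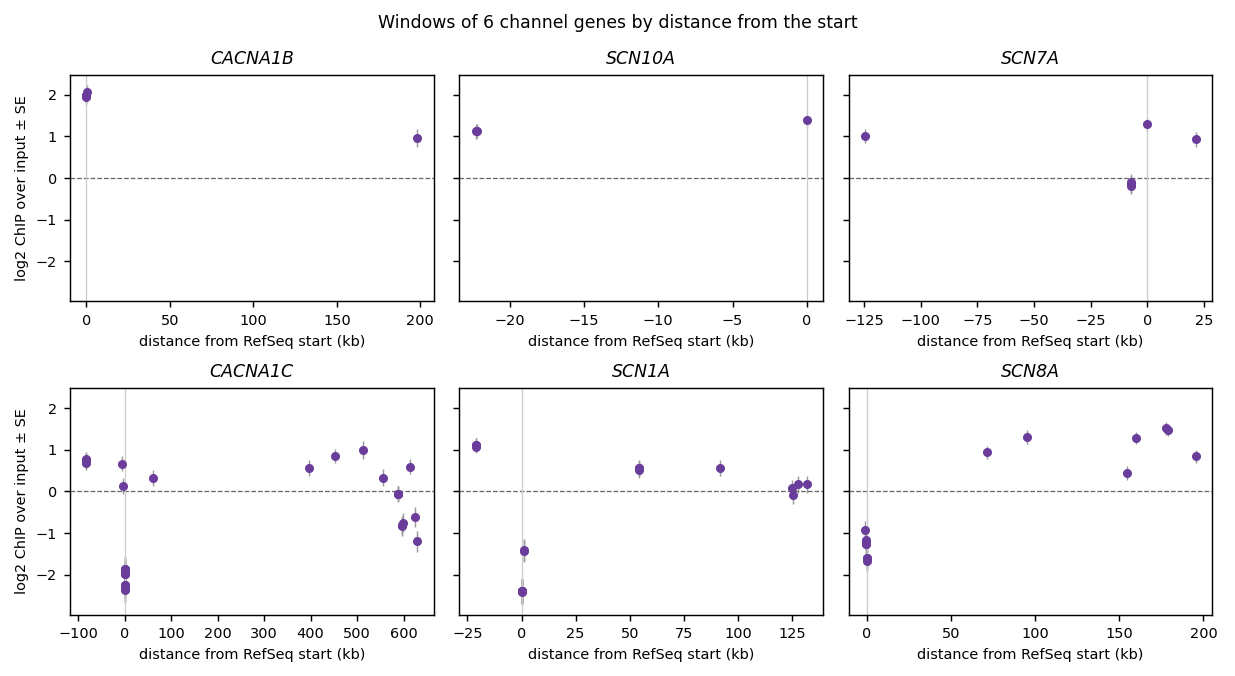
Log2 ChIP over input ± SE (15-library fit) of every window of 6 channel genes against its distance from the RefSeq start in kb. The windows at distance 0 are the lowest in CACNA1C, SCN1A and SCN8A (RefSeq start windows -1.89, -2.39 and -1.59), and those at the start of CACNA1B, SCN10A and SCN7A are the highest of their genes (1.96, 1.39 and 1.29 at the RefSeq start).

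CG density of the promoter was set beside the start windows. Over 16773 genes, the ratio of observed to expected CG pairs (300 bases around the start) ran against the start window's log2 ratio with Pearson's r = -0.48 and Spearman's rho = -0.48. Over the 25 channel genes r was -0.23 and rho -0.20. These are descriptions across genes, which share libraries and are not independent, and the difference was not tested. Genes with a ratio of at least 0.6 had a median log2 ratio of -0.92 over all genes and -0.21 over 14 channel genes. Under 0.6 the medians were 0.47 over all genes and -0.13 over 11 channel genes, so the median of the channel genes lay above that of all genes in the dense class and below it in the sparse one. CACNA1B (0.957) and CACNA1C (1.07) are both dense in CG pairs and were at opposite ends, as were SCN10A (0.160) and SCN1A (0.378) among the sparse ones.

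The main comparison of the study was ΔLEO1 against WT in 0.1% serum. On sums over all distinct windows none of the channel genes was called: 0 of 38 tested by edgeR, with 7 (18.4%) at an unadjusted p under 0.05, and 0 by DESeq2. Over windows that do not overlap edgeR called 3 of 36, CACNA1B, CACNB1 and CACNA1D, against 1.05% of all genes. TMM and DESeq2 scaling centre most genes near 0, and the fly spike-in was not used for scaling. A gain or loss common to most genes would therefore not show in this or the other ChIP contrasts, and was not tested here. The paper did scale by the fly spike-in. It reported far more regions with higher than with lower H3K9me2 in ΔLEO1 than in WT in 0.1% serum. In the fits used here 6 of all 50795 genes tested were called, 0.0118%, with 5126 (10.1%) at an unadjusted p under 0.05. DESeq2 called 41, 0.0807%. The largest differences, ΔLEO1 minus WT, were negative for CACNA1B and CACNA2D2 and positive for CACNB1. The median log2 fold change was -0.15 for the channel genes and 0.00 for all genes, with 23 of 38 below 0. That median was 0.04 without WT 0.1% library A, and 0.14 with totals of the peak table as library sizes, where the median of all genes was 0.29.

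ChIP of CACNA1B was 43.0 and 45.5 CPM in WT 0.1% and 22.9 and 23.5 CPM in ΔLEO1 0.1%. The groups did not overlap, and the log2 fold change was -0.91 ± 0.21 (edgeR adjusted p = 0.176). Input was 9.26 and 11.99 CPM in WT 0.1% and 8.48 and 16.1 CPM in ΔLEO1 0.1%, which overlap, and with the input difference taken off the value was -1.15 ± 0.37 (adjusted p = 0.435). Summed over windows that do not overlap, CACNA1B was called (-0.99 ± 0.23, adjusted p = 0.00863).

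CACNB1 was at 21.7 and 27.4 CPM in WT 0.1% and 39.3 and 57.7 CPM in ΔLEO1 0.1%. Both ΔLEO1 libraries were above both WT libraries, and the log2 fold change was 0.95 ± 0.27 (adjusted p = 0.245). Over windows that do not overlap it was called (1.00 ± 0.23, adjusted p = 0.00607), as was a lower value of CACNA1D (-0.34 ± 0.09, adjusted p = 0.0242). This setting called 3 of 36 channel genes and 1.05% of all genes. The input of CACNA1D, summed over all its distinct windows, was also lower in ΔLEO1 (-0.29 ± 0.11), as described below. The input of CACNB1 was 46.3 and 47.3 CPM in WT 0.1% and 43.1 and 46.4 CPM in ΔLEO1 0.1%.

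CACNA2D2, an α2δ subunit, was at 26.9 and 16.7 CPM in WT 0.1% and 13.9 and 9.69 CPM in ΔLEO1 0.1%, a log2 fold change of -0.83 ± 0.30 (adjusted p = 0.374). The groups did not overlap, and the WT libraries lay far from each other. SCN3A, a sodium pore of the fetal brain, was at 59.7 and 58.3 CPM against 43.1 and 30.9 CPM (-0.65 ± 0.22, adjusted p = 0.333). CACNG3 was at 14.7 and 8.58 CPM against 7.43 and 6.92 CPM (-0.66 ± 0.28, adjusted p = 0.455). Without WT 0.1% library A the values of CACNA2D2 and CACNG3 were -0.45 and -0.23.

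Among the higher values, SCN2A, a sodium pore of cortical neurons, was at 56.2 and 85.8 CPM in WT 0.1% and 91.7 and 107 CPM in ΔLEO1 0.1% (0.48 ± 0.22, adjusted p = 0.473). The 2 WT libraries differed from each other by more than the nearer pair across genotypes. Summed over windows that do not overlap, the sign turned to -0.19. At the RefSeq start window of SCN2A the reads were 7 and 12 in WT 0.1% and 25 and 21 in ΔLEO1 0.1%, with 4 and 4 in WT 10% and 6 in ΔLEO1 10%. CACNB3 (0.53 ± 0.30) was at 23.1 and 41.6 CPM against 56.1 and 36.4 CPM, which overlap, and its value ran from 0.16 to 0.98 on leaving out 1 library. SCN2B (0.46 ± 0.27), a sodium β subunit, was at 8.03 and 9.86 CPM against 10.5 and 15.2 CPM, which do not.

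Tested one window at a time, 1 of 314 channel windows (0.318%) was called in this contrast, a share near the 0.38% of all 137501 windows. It was a window of CACNB3 at chr12:48822446-48824446, 8966 bp inside the gene, with 3 and 7 reads in WT 0.1% and 23 and 15 in ΔLEO1 0.1% (log2 fold change 1.52 ± 0.39, edgeR adjusted p = 0.0365). In 10% serum it held 8 and 5 reads in WT and 6 in ΔLEO1. Its input was 30 and 32 reads in WT 0.1% and 33 and 40 in ΔLEO1 0.1%.

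**Figure D4:**
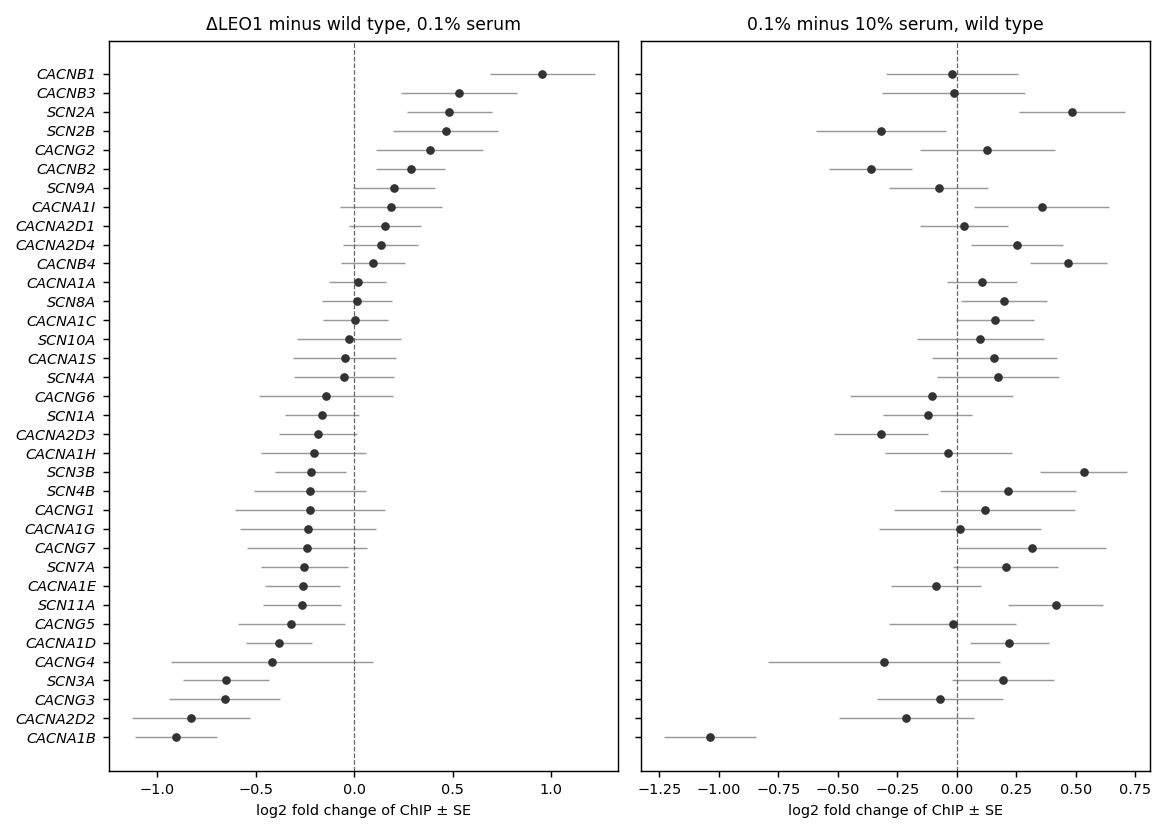
Log2 fold change of ChIP ± SE (edgeR, 7 ChIP libraries) for 36 channel genes, ordered by the left panel: ΔLEO1 minus WT in 0.1% serum on the left, and 0.1% minus 10% serum in WT on the right. None of these genes passed the threshold in either panel on these sums over all distinct windows. CACNA1B is lowest in both, at -0.91 and -1.04, and CACNB1 is highest on the left at 0.95.

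Serum withdrawal was compared in WT cells, 0.1% against 10% serum. It shares the WT 0.1% libraries with the genotype comparison, so the values of the 2 comparisons are not independent. By edgeR 0 of 38 channel genes were called, with 4 (10.5%) at an unadjusted p under 0.05, and DESeq2 called 0. Of all genes 0% were called (0 of 50795, with 4606, or 9.07%, at an unadjusted p under 0.05), and DESeq2 called 3, 0.00591%. Over windows that do not overlap, edgeR called 0 of 36 channel genes (3 at an unadjusted p under 0.05, against 5357 of all 48618 genes) and 0.432% of all genes. The median log2 fold change was 0.10 for the channel genes and 0.00 for all genes.

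CACNA1B was at 92.9 and 90.0 CPM in WT 10% and 43.0 and 45.5 CPM in WT 0.1%. The groups were far apart and each pair was close, and the log2 fold change was -1.04 ± 0.19 (adjusted p = 0.195). The input of CACNA1B moved in the same direction, from 19.3 and 19.4 CPM in WT 10% to 9.26 and 11.99 CPM in WT 0.1%. With the input difference taken off, the value was -0.26 ± 0.39 (adjusted p = 0.870).

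One window at a time, 4 of 314 channel windows (1.27%) were called in this contrast, against 0.225% of all windows. They were the 4 start windows of CACNA1B, which overlap each other and share reads. These windows, between 137876782 and 137878934 on chromosome 9, fell by 1.17 to 1.28 (edgeR adjusted p = 0.000977 to 0.0034). The one nearest the RefSeq start held 44 and 54 reads in WT 10% and 23 and 21 in WT 0.1%. Its input held 22 and 28 reads in WT 10% and 7 and 13 in WT 0.1%. The window 198087 bp inside the gene held 22 and 31 ChIP reads in WT 10% and 33 and 22 in WT 0.1%, which overlap.

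The other leading genes had smaller values. SCN3B was at 60.3 and 71.0 CPM in WT 10% and 90.8 and 100.4 CPM in WT 0.1% (0.53 ± 0.18, adjusted p = 0.440). CACNB4, a calcium β subunit of the brain, was at 200 and 250 CPM against 348 and 276 CPM (0.47 ± 0.16, adjusted p = 0.441). SCN11A was at 49.8 and 44.6 CPM against 65.7 and 60.5 CPM (0.42 ± 0.20). In these 3 genes both low-serum libraries lay above both high-serum ones. SCN2A had 52.8 and 48.0 CPM in WT 10% and 56.2 and 85.8 CPM in WT 0.1% (0.48 ± 0.22). Lower values were those of CACNB2 (-0.36 ± 0.17), CACNA2D3 (-0.32 ± 0.20) and SCN2B (-0.32 ± 0.27).

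**Figure D5:**
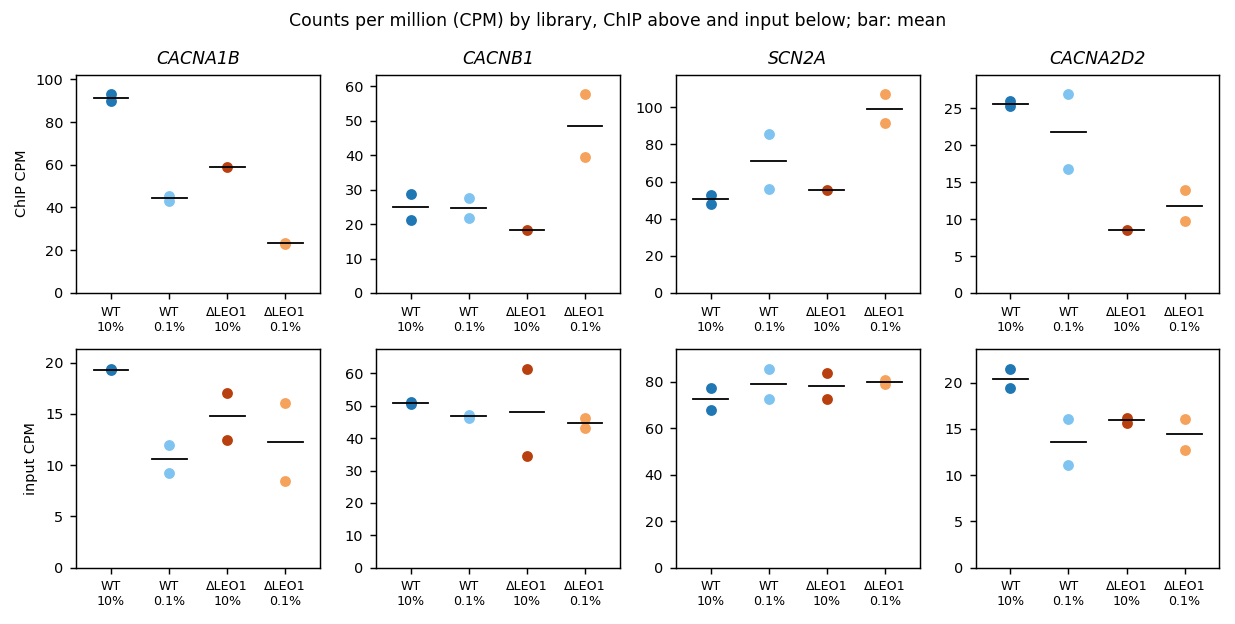
ChIP (top) and input (bottom) in CPM for 4 channel genes in each group; points are libraries and the bar is their mean, with 1 ChIP library for ΔLEO1 in 10% serum. CACNA1B ChIP is highest in WT 10% and lowest in ΔLEO1 0.1%, and its input is highest in WT 10%; CACNB1 and SCN2A ChIP are highest in ΔLEO1 0.1%, and every ΔLEO1 library of CACNA2D2 ChIP lies below every WT library.

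The comparisons with ΔLEO1 in 10% serum rest on 1 ChIP library there, which is assumed to vary like the others. For genotype in 10% serum, edgeR called 0 of 38 channel genes (3, or 7.89%, at an unadjusted p under 0.05, against 8.74% of all genes) and 0.00394% of all genes, and DESeq2 called 0 channel genes and 0.0532% of all. Over windows that do not overlap 0 of 36 were called (5 at an unadjusted p under 0.05, against 4357 of all genes; 0.0535% of all genes were called), and one window at a time 0 of 314 channel windows (21 at an unadjusted p under 0.05, against 11409 of all windows) and 0.0247% of all windows. CACNA2D2 was at 8.55 CPM in ΔLEO1 against 26.0 and 25.3 CPM in WT (-1.50 ± 0.42, adjusted p = 0.303), and CACNA2D3 at 42.2 CPM against 86.8 and 69.5 CPM (-0.87 ± 0.26). CACNB3 was at 55.1 CPM against 37.4 and 27.5 CPM (0.75 ± 0.36), and SCN8A at 103 CPM against 78.4 and 73.6 CPM (0.44 ± 0.22).

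For serum in ΔLEO1, edgeR called 0 of 38 (4, or 10.5%, at an unadjusted p under 0.05, against 9.99% of all genes) and 0.00197% of all genes, and DESeq2 called 0 channel genes and 0.0492% of all. Over windows that do not overlap 0 of 36 were called (7 at an unadjusted p under 0.05, against 5284 of all genes), and 0.177% of all genes. CACNA1B was at 58.8 CPM in 10% serum and 22.9 and 23.5 CPM in 0.1% serum (-1.31 ± 0.25, adjusted p = 0.147). CACNG5 was at 45.4 CPM against 35.9 and 19.4 CPM (-0.67 ± 0.33). CACNB1 was at 18.2 CPM against 39.3 and 57.7 CPM (1.37 ± 0.37), and SCN2A at 55.6 CPM against 91.7 and 107 CPM (0.83 ± 0.28). One window at a time, 1 of 314 channel windows was called, a window of CACNA1B (fall of 1.63 ± 0.37, adjusted p = 0.0464), where 0.0313% of all windows were.

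As the background measured in the same way, input was compared between ΔLEO1 and WT over all 8 inputs. EdgeR called 0 of 39 channel genes, with 1 (2.56%) at an unadjusted p under 0.05 against 5.69% of all genes, and 0.00182% of all genes, and DESeq2 called 0 channel genes and 0.0164% of all. Over windows that do not overlap 0 of 39 were called (3 at an unadjusted p under 0.05, against 3339 of all genes), and 0.0711% of all genes. CACNA1D, CACNA2D2 and CACNA2D3 lie near each other on chromosome 3, in a stretch looked at because earlier results of these data showed lower ΔLEO1 input there. For CACNA1D, WT inputs were 125, 113, 122 and 122 CPM and ΔLEO1 inputs 108, 91.8, 96.8 and 98.6 CPM, with every ΔLEO1 input below every WT input (-0.29 ± 0.11, adjusted p = 0.810). CACNA2D3 was at -0.28 ± 0.14 and CACNA2D2 at -0.12 ± 0.17. With the input difference taken off, the genotype value in 0.1% serum was -0.07 for CACNA1D and -0.94 for CACNA2D2.

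Peak regions are a second count of the same libraries, over the merged regions that the authors deposited. Of 16092 regions, 34 were annotated to 17 of the channel genes, 6 of them to CACNA2D3. In ΔLEO1 against WT in 0.1% serum 1 of the 34 was called, where 0.0621% of all regions were. It lies at chr22:39564579-39565679, at -5624 bp from the start of CACNA1I, a T-type pore, in sequence annotated as intergenic. It held 15 and 19 reads in WT 0.1%, 49 and 26 in ΔLEO1 0.1%, 22 and 24 in WT 10% and 29 in ΔLEO1 10%. Both ΔLEO1 0.1% libraries were above both WT 0.1% libraries, and the region rose by 1.29 ± 0.31 on the log2 scale (edgeR adjusted p = 0.0446). The call was lost with DESeq2, without TMM, with the input taken off and on leaving out any library of either group. A second region in the first intron of CACNA1I held 29 and 10 reads in WT 0.1% and 40 and 27 in ΔLEO1 0.1% (0.99 ± 0.31, adjusted p = 0.233). The TSS windows of CACNA1I were at 6.99 and 8.58 CPM in WT 0.1% and 9.29 and 8.30 CPM in ΔLEO1 0.1% (0.19 ± 0.26, adjusted p = 0.866).

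For serum in WT, edgeR called 0 of 34 channel regions and 0% of all regions, with 3 channel regions and 1170 of all regions at an unadjusted p under 0.05, and DESeq2 called 0 channel regions. CACNA1B, the highest member by TSS windows, had no region annotated to it. Against input and relative to all regions, the channel regions had a median log2 ratio of -0.05. Of the 34, 1 was called, a region in the third intron of CACNG7 (0.70 ± 0.17, adjusted p = 0.0348), where 0.261% of all regions (42 of 16092) were.

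Other genes of calcium and sodium handling, listed with earlier results known, were counted in the same way. Of 31 tested, 8 were higher than input and 14 lower, where 39.5% of all genes were higher and 34% lower. The ryanodine receptors RYR1, RYR2 and RYR3, which release calcium from the sarcoplasmic and endoplasmic reticulum, were all higher (0.58 ± 0.10, 0.66 ± 0.10 and 0.75 ± 0.08). The store-operated entry genes were all lower: ORAI1, ORAI2 and ORAI3 at -1.85 ± 0.25, -0.54 ± 0.15 and -2.55 ± 0.20, and their sensors STIM1 and STIM2 at -0.25 ± 0.09 and -1.65 ± 0.14. The ITPR genes of the same list were mixed, with ITPR1 higher (0.30 ± 0.07) and ITPR2 (-0.36 ± 0.11) and ITPR3 (-1.835 ± 0.20) lower. NALCN, the sodium leak channel, was at -0.34 ± 0.11. In genotype in 0.1% serum and in serum in WT, 0 of 30 were called by edgeR, with 2 and 1 at an unadjusted p under 0.05.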

How the data were processed

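ChIP and input DNA of BJ-5ta cells were sequenced, and the authors deposited raw read counts, whole numbers without scaling, over TSS windows and over merged peak regions. The submitters' processing notes name bcl2fastq 2.20.0.422, STAR 2.7.10a, HOMER and the builds hg38 and dm6. How peaks were called, and whether on pooled libraries, is not given in the sources used here. Spike-in scaling was not used here, while the paper used it.

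The members and lists were chosen with earlier results of these data known. Counts were summed per gene over distinct windows and fitted with edgeR 4.0.16 (R 4.3.3): filterByExpr with a minimum count of 10, TMM, a prior count of 2, the two-sided quasi-likelihood test and Benjamini-Hochberg adjustment over all features, called under 0.05. DESeq2 1.42.0 was an alternative. Contrasts of ChIP used 7 ChIP libraries, ChIP over input 15 libraries. The scripts were tested on simulated data. Of the members, 2 entered every fit and count but are not reported here one by one. Named were all called members, the 5 highest and 5 lowest by ChIP over input, the 4 largest differences each way per contrast (2 with 1 usable library), members in chromosome stretches with lower input in earlier results, and CACNA1I. Start windows, windows by distance, and the summed WT 0.1% pair were added after seeing the data.

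Letters A and B were not treated as pairs in the main fits. Differences of A minus B correlated between groups at -0.0009 to 0.0157 in ChIP and 0.0123 to 0.111 in input. The highest value was that of the 10% serum inputs of WT and ΔLEO1. Such differences also hold counting noise, so low correlations cannot exclude a culture or batch shared by letter.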

Additional observations from a re-analysis of the deposited data

Results flagged for a closer look

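CACNB1 had genotype differences of opposite direction in the 2 sera: every ΔLEO1 library was below every WT library in 10% serum (-0.43 ± 0.37, 1 ΔLEO1 library) and above every WT library in 0.1% serum (0.95 ± 0.27). The difference between them was 1.3852 ± 0.46 on the log2 scale (edgeR interaction term, unadjusted p = 0.00916, adjusted p = 0.715), which did not pass the threshold. By this test 0 of 38 channel genes were called, with 1 at an unadjusted p under 0.05, and 0 of 50795 genes, with 3011 at an unadjusted p under 0.05.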

How the results depend on the processing

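Of the values of single genes and regions under alternatives, 934 kept direction and side of the threshold, 82 lost the call, 2 gained it and 19 turned sign. For ChIP over input (26 called, 10 higher, 16 lower), totals without TMM gave 17 higher and 9 lower. Peak table totals gave 0 higher and 38 lower, where 54055 of all 55324 genes were lower and 4 higher. They turned CACNA1B (-0.0939), CACNA1D (-1.2546), CACNA1E (-1.0932), CACNA2D3 (-1.395), CACNG2 (-1.1509), CACNG3 (-0.5121), CACNG5 (-0.4428), SCN10A (-0.7527), SCN3B (-1.1773) and SCN4A (-1.0255). Within single groups 20 were called in WT 10% (7 higher, 13 lower), 14 in WT 0.1% (7 lower), 12 in ΔLEO1 10% (5 higher, 7 lower) and 12 in ΔLEO1 0.1% (6 higher, 6 lower), from fewer libraries. Of all 55149 genes, 31776 were called in WT 10%, 24768 in WT 0.1% and 24692 in ΔLEO1 0.1%. Calls in 0.1% serum were thus fewer over all genes too, and the lower counts there are not shown to be particular to the channel genes. The ΔLEO1 10% counts rest on 1 ChIP library. In the single groups CACNA2D3 turned in ΔLEO1 10% (-0.0515), and CACNG8 (0.185) and SCN3A (0.1047) in WT 0.1%. SCN3A also turned in WT 10% (0.0386), and SCN2A in ΔLEO1 0.1% (0.0601). Windows that do not overlap turned SCN9A (0.1176) and, for genotype in 0.1% serum, SCN2A (-0.1921), and called 3 genes there. Single windows called 1 gene each for genotype in 0.1% serum, serum in WT and serum in ΔLEO1. Keeping the library of 54 reads turned SCN8A for genotype in 10% serum (-0.0547). The called CACNA1I region was lost (0 called) without TMM, with DESeq2, TSS table totals, the input taken off or the 54-read library kept. Apart from the settings' own construction, the cause was not tested.

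Leaving out 1 library at a time gave 23 to 27 called for ChIP over input (9 to 11 higher, 14 to 17 lower), 0 to 0 for every other gene contrast and 0 to 0 for regions, and CACNA2D2 in input ran from -0.2351 to 0.021, positive only without WT 0.1% input A. Of the named genes, calls for ChIP over input were lost for CACNA1H without any 1 of 7 libraries (B ChIP and B input of ΔLEO1 0.1% and of WT 0.1%, B ChIP and A input of WT 10%, B input of ΔLEO1 10%), CACNA2D3 without any 1 of 7 (A ChIP and A input of WT 0.1% and of WT 10%, A ChIP and B input of ΔLEO1 0.1%, B input of ΔLEO1 10%) and SCN3A without any 1 of 4 (A input of WT 10% and of ΔLEO1 10%, at -0.23 for the latter, and B ChIP and A input of ΔLEO1 0.1%). Of values not called, those moved by over 1.5 times were, for genotype in 0.1% serum, CACNA1I (0.04 to 0.30), CACNA2D2 (-1.12 to -0.45), CACNB3 (0.16 to 0.98), CACNG3 (-0.96 to -0.23), SCN2A (0.20 to 0.80) and SCN2B (0.23 to 0.73), for serum in WT, CACNA2D3 (-0.48 to -0.15), CACNB2 (-0.51 to -0.24), CACNB4 (0.28 to 0.63), SCN2A (0.16 to 0.75) and SCN2B (-0.45 to -0.19), for serum in ΔLEO1, CACNG5 (-1.20 to -0.33), for input, CACNA2D3 (-0.37 to -0.18), and the intronic CACNA1I region for genotype (0.60 to 1.66). The channel gene median for ChIP over input ran from -0.20 to -0.02, and for serum in WT its lowest value was 0.04. With the letter as a block, 26 channel genes were called for ChIP over input, 0 in the other gene contrasts and 1 region for genotype. Summing the WT 0.1% pair gave 23 called for ChIP over input and 0 for genotype and serum. For input, the fit on only the libraries compared is the fit reported. Channel windows held a median of 211 reads over the 8 inputs, and the smallest difference detectable at this depth was not computed.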
